A study of Mus musculus with 4 samples.

Results

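Myh11, the heavy chain of smooth muscle myosin, and Tpm2, the beta-tropomyosin, are described here in mouse lung after allergen challenge. All probes of the array whose single gene symbol in the platform annotation was Myh11 or Tpm2 were taken. This gave 1 probe for Myh11 (probe 18012, RefSeq transcript NM_013607) and 3 probes for Tpm2 (probes 2614, 9607 and 19643, all annotated to NM_009416), which are 4 of the 20205 probes and 2 of the 9802 named genes. All 4 probes had a value on all 4 arrays, and no filter on dim spots was applied because no brightness values were used here. Probe sequences were not used here, so cross-hybridisation with related myosins or tropomyosins was not tested, and the 3 Tpm2 probes may share sequence.

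Smooth muscle contracts when calcium and calmodulin activate myosin light chain kinase, which phosphorylates the regulatory light chain of myosin so that the myosin heads pull on actin. Tropomyosin lies along the actin filament, where caldesmon and calponin take the place that troponin has in striated muscle. In the lung this machinery sits in the muscle around airways and vessels, and Myh11 is a widely used marker of mature smooth muscle, whereas Tpm2 is also made in skeletal muscle and in fibroblasts.

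Whole lung RNA of BALB/cJ mice, an inbred strain, was compared on 4 dual-colour arrays. The tissue on 2 arrays came from mice that were sensitized to the egg white protein ovalbumin, challenged with it and subjected to UCP air (the abbreviation UCP is not spelled out in the labels). The other 2 arrays held lung of mice sensitized and challenged in the same way in particle-free air. Each was hybridised against a pool of lung RNA from 6 control animals, non-sensitized according to the series' design text and kept in the same air. Array 1 of each air carried the challenged lung in the Cy5 channel, and array 2 was its dye swap with the challenged lung in Cy3. Age and sex are not in the labels, nor is it stated that the paired arrays come from different mice, so the spread behind each p-value is that of the arrays and may be technical. Sensitization and challenge cannot be told apart in this design, and each control pool counts as 1 sample whose own spread is not in any test.

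Every value below is a log2 ratio of challenged lung over its control pool, so that a negative value means less signal in challenged lung. Each array had a plateau of extreme ratios, where 20 to 58 probes shared 1 value. It was sought only among high ratios where challenged lung was in Cy5 and only among low ones where it was in Cy3. Its sign was thus set by the search and does not settle the relative direction of the 4 arrays. Macrophage markers had array medians of 1.18 and 1.32 in UCP air and of 1.09 and 0.93 in particle-free air. The medians of this list thus ran the same way on the 4 arrays. Of its 11 probes 7 were above 0 on each array, and 4 averaged below 0. That challenged lung is the numerator is likely rather than settled: scanners' customary ratio puts Cy5 over Cy3, and 7 genes that allergic inflammation of mouse lung is known to raise, such as Chil3, had a median averaged log2 ratio of 3.13. A ratio carries no level, so the tissue could not be checked by the level of lung markers. Array medians lay between -0.07 and 0.02, the arrays held 19349 to 19832 values each, and the 18160 probes without a gap were tested. Over these probes the arrays correlated weakly with each other. For the 6 pairs Pearson r lay between 0.07 and 0.18, and the Spearman rank correlation between 0.12 and 0.30. With so few arrays, their number sets the precision.

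The first question was how challenged lung differed from control lung in the Myh11 signal whatever the air. On the arrays of UCP air the Myh11 log2 ratio was -0.80 on array 1 and -1.24 on array 2. In particle-free air it was -0.96 on array 1 and -0.93 on array 2. All 4 arrays lay below 0, and the signal was 1.74-fold and 2.37-fold lower in UCP air and 1.95-fold and 1.91-fold lower in particle-free air. The averaged log2 ratio was -0.98 ± 0.19 (SD, n = 4), 1.98-fold lower than in the control pools, with a limma 95% interval from -1.42 to -0.55.

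Myh11 did not pass the test over all probes (limma unadjusted p = 0.00275, Benjamini-Hochberg adjusted p = 0.156). The threshold of 0.05 was reached on the low side by 0% of the 18160 probes, and 7.59% lay below 0 with an unadjusted p under 0.05. On the high side 0.00551% of probes passed and 6.45% had an unadjusted p under 0.05. An exact two-sided sign-flip test of this probe gave p = 0.125, the smallest that 4 arrays allow. The Myh11 probe ranked 494 from the lowest of 18160 averaged ratios, so that 2.73% of probes lay as low or lower. It was at least 1.5-fold lower on each of the 4 arrays, as were 1.20% of all probes. Its SD over the arrays was 0.19, against a median SD of 0.40 over all probes, and 13.1% of probes had a smaller one. In whole lung RNA, fewer smooth muscle cells and less transcript per cell cannot be told apart.

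**Figure D1:**
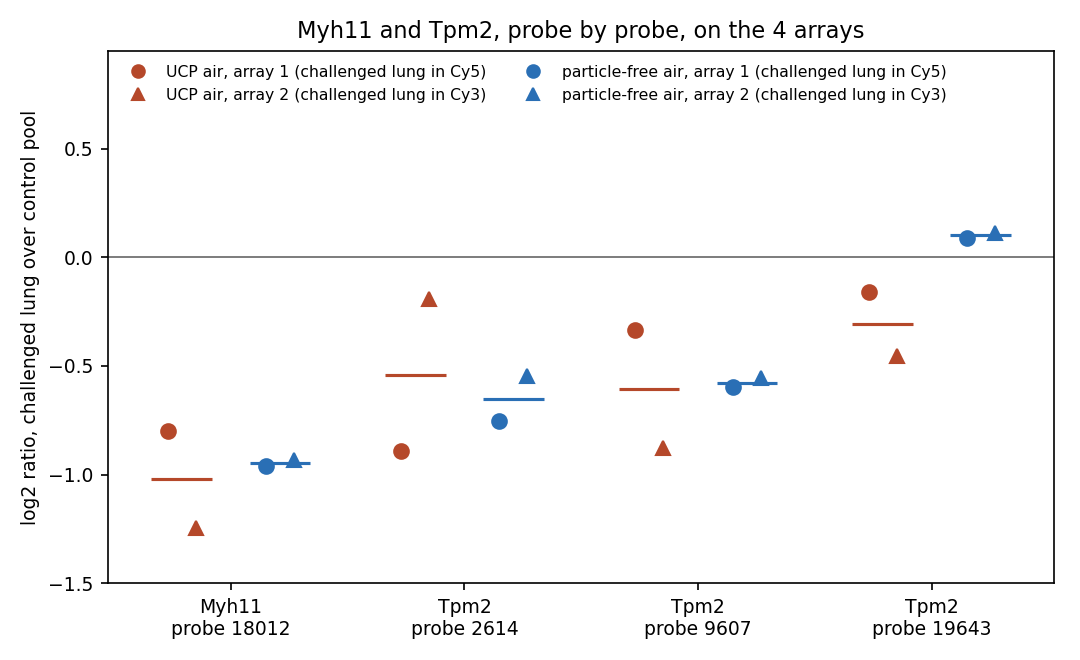
Log2 ratios (challenged lung over control pool, vertical axis) of the Myh11 probe and the 3 Tpm2 probes, with UCP air (red) left of particle-free air (blue), circles for array 1 and triangles for array 2, and bars for the mean of an air. All 4 Myh11 values lie between -1.24 and -0.80, and only Tpm2 probe 19643 has values above 0, both in particle-free air.

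Tpm2 gave ratios closer to 0, and its probes did not all run alike. Probe 2614 read -0.89 and -0.19 in UCP air and -0.76 and -0.55 in particle-free air. Probe 9607 read -0.34 and -0.88 in UCP air and -0.60 and -0.56 in particle-free air. Both were below 0 on all 4 arrays, as were 13.6% of all probes, and their averages were -0.60 ± 0.31 and -0.59 ± 0.22 (SD, n = 4 each), a 1.51-fold lower signal in either case. Probe 19643 read -0.16 and -0.46 in UCP air and 0.09 and 0.11 in particle-free air. Its 2 values in UCP air thus lay below 0 and its 2 values in particle-free air above 0, with an average of -0.10 ± 0.27 (SD, n = 4).

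No Tpm2 probe passed over all probes, with limma adjusted p = 0.303 for probe 2614, 0.276 for probe 9607 and 0.782 for probe 19643. The unadjusted p-values were 0.0303, 0.0216 and 0.524 in limma's test. The limma 95% intervals ran from -1.10 to -0.09 for probe 2614, from -1.05 to -0.14 for probe 9607 and from -0.51 to 0.30 for probe 19643. With the 3 probes averaged first, Tpm2 stood at -0.43 ± 0.08 (SD, n = 4, limma adjusted p = 0.256 over 9153 genes), a 1.35-fold lower signal. That average covers arrays on which the probes went apart. On array 2 of UCP air probe 2614 was 0.68 above probe 9607, and on array 1 it was 0.56 below it.

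The range of the averaged ratios over the 3 Tpm2 probes was 0.49. Among the 476 genes with 3 tested probes the median range was 0.59, and 58.8% had a wider one than Tpm2. Probes of 1 gene that disagree by this much were therefore common on these arrays. Array by array, probe 9607 kept a steady distance from the Myh11 probe, with Myh11 lower by 0.46 and 0.37 in UCP air and by 0.36 and 0.38 in particle-free air. The distance between Myh11 and Tpm2 probe 2614 varied more, since Myh11 was 0.10 above it on array 1 and 1.05 below it on array 2 of UCP air.

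**Figure D2:**
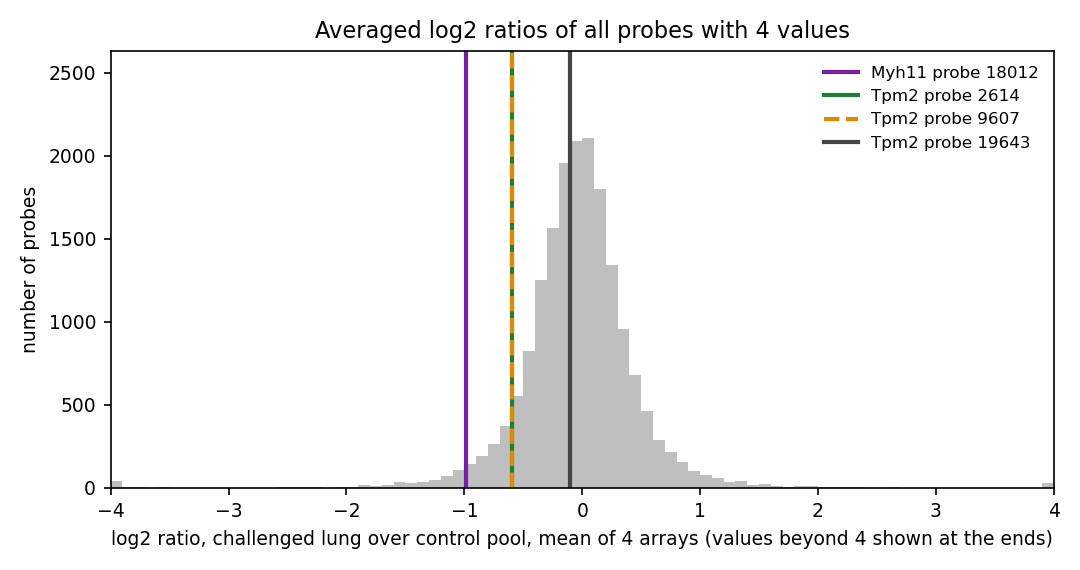
Number of probes (vertical axis) by log2 ratio averaged over the 4 arrays (horizontal axis, challenged lung over control pool) for the 18160 tested probes, with vertical lines at the Myh11 and Tpm2 probes. Myh11 at -0.98 lies in the lower tail, Tpm2 probes 2614 and 9607 coincide near -0.60, and Tpm2 probe 19643 lies near the centre at -0.10.

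The next comparisons took each air alone. In UCP air Myh11 averaged -1.02 ± 0.32 (SD, n = 2), a 2.03-fold lower signal with a limma adjusted p = 0.373, and in particle-free air -0.95 ± 0.02 (SD, n = 2), a 1.93-fold lower signal with a limma adjusted p = 0.406. No probe on the array passed on the low side in either air (0% each), while 4.75% of probes in UCP air and 5.89% in particle-free air lay below 0 with an unadjusted p under 0.05 in limma. Myh11 was among these in both airs (unadjusted p = 0.00901 in UCP air and 0.0118 in particle-free air by limma), and no Tpm2 probe was in either. Tpm2 probe 2614 averaged -0.54 ± 0.49 in UCP air and -0.65 ± 0.15 in particle-free air, and probe 9607 averaged -0.61 ± 0.38 and -0.58 ± 0.03 in the same order (SD, n = 2 each). At least 1.5-fold lower on both arrays of an air were 4.55% of probes in UCP air and 4.62% in particle-free air. Myh11 met this in both airs and no Tpm2 probe in either.

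The last comparison set the effect in UCP air against that in particle-free air. For Myh11 the difference, UCP minus particle-free, was -0.07 (limma 95% interval -0.94 to 0.79, adjusted p = 0.99). For Tpm2 probes 2614, 9607 and 19643 it was 0.11, -0.03 and -0.41, with limma 95% intervals from -0.91 to 1.12, from -0.94 to 0.88 and from -1.22 to 0.40, and adjusted p between 0.984 and 0.996. No probe on the array passed in either direction (0% each), and 2.02% were lower and 1.95% higher in UCP air at an unadjusted p under 0.05 by limma. The intervals are wide on both sides of 0, so these arrays do not show that the airs had the same effect. Both UCP arrays lay below both particle-free arrays for Tpm2 probe 19643, as for 14.6% of all probes, and lay on the opposite side of 0, as for 3.43% of all probes in this direction and 8.23% in either, while for Myh11 and the other Tpm2 probes the airs overlapped.

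The dye orientations were also set side by side. Myh11 averaged -0.88 on the arrays with challenged lung in Cy5 and -1.09 on those with it in Cy3, Tpm2 probe 2614 -0.82 and -0.37, and Tpm2 probe 9607 -0.47 and -0.72 in that order. Myh11 and Tpm2 probe 9607 were thus lower with Cy3 and Tpm2 probe 2614 lower with Cy5, each by less than its distance from 0. Tpm2 probe 19643 averaged -0.03 with Cy5 and -0.17 with Cy3, which is a wider gap than its distance from 0.

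Other parts of the smooth muscle contractile apparatus were read from a list of 25 genes, of which 18 had a named probe and 17 had one with 4 values (32 probes, Myh11 and Tpm2 included). No probe of this list passed over all probes in any comparison (0 of 32). The median averaged ratio was -0.13, against -0.03 for all 18160 probes, and 23 of 32 probes (71.9%) lay below 0, against 53.3% of all probes. Without the members the list kept 15 genes with 28 probes, of which 19 lay below 0. Among the 32 probes Myh11 ranked 3 from the lowest, Tpm2 probes 2614 and 9607 ranked 6 and 7 from the lowest, and Tpm2 probe 19643 ranked 21.

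The smooth muscle actins did not stand with Myh11. Acta2, the smooth muscle alpha-actin, read -0.23 and -0.27 in UCP air and 0.32 and -0.25 in particle-free air on probe 5821. Its probe 8443 read 0.14 and 0.77 in UCP air and -0.30 and -0.14 in particle-free air. Actg2, the enteric gamma-actin of smooth muscle, read -0.14 and -0.53 in UCP air and 0.43 and -0.40 in particle-free air. The Myh11 ratio lay below all 3 of these actin probes on 4 of 4 arrays, by 0.88 ± 0.32, 1.10 ± 0.62 and 0.83 ± 0.38 (SD, n = 4 each). None of the actin probes passed (limma adjusted p between 0.761 and 0.809).

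Several genes whose products bind or anchor filaments had lower averages than the actins, and others did not. Vcl, vinculin, which links actin to adhesion sites, read -1.37 and -1.11 in UCP air and -1.51 and -1.38 in particle-free air, an average of -1.34 ± 0.17 (SD, n = 4, limma adjusted p = 0.108). Pdlim3, an actinin-associated protein of muscle, averaged -0.81 ± 0.10 (SD, n = 4, limma adjusted p = 0.173) with all 4 arrays between -0.91 and -0.70. Vcl, Pdlim3 and Myh11 were the only 3 of the 32 probes at least 1.5-fold lower on each array, against 1.20% of all probes. Des, the intermediate filament desmin of muscle, averaged -0.56 ± 0.39, and Mylk, the light chain kinase, had -0.57 ± 0.38, -0.15 ± 0.40 and 0.06 ± 0.20 on its 3 probes with 4 values (SD, n = 4 each). Ldb3, which is also abundant in striated muscle, had its probe 4084 at -2.00 and -2.41 in UCP air and at -0.29 and 0.04 in particle-free air, and its other probes at -0.50 and -0.11 on average. Csrp1, a LIM domain protein, was above 0 on all 4 arrays on both probes, as were 12.7% of all probes, averaging 0.30 and 0.23.

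**Figure D3:**
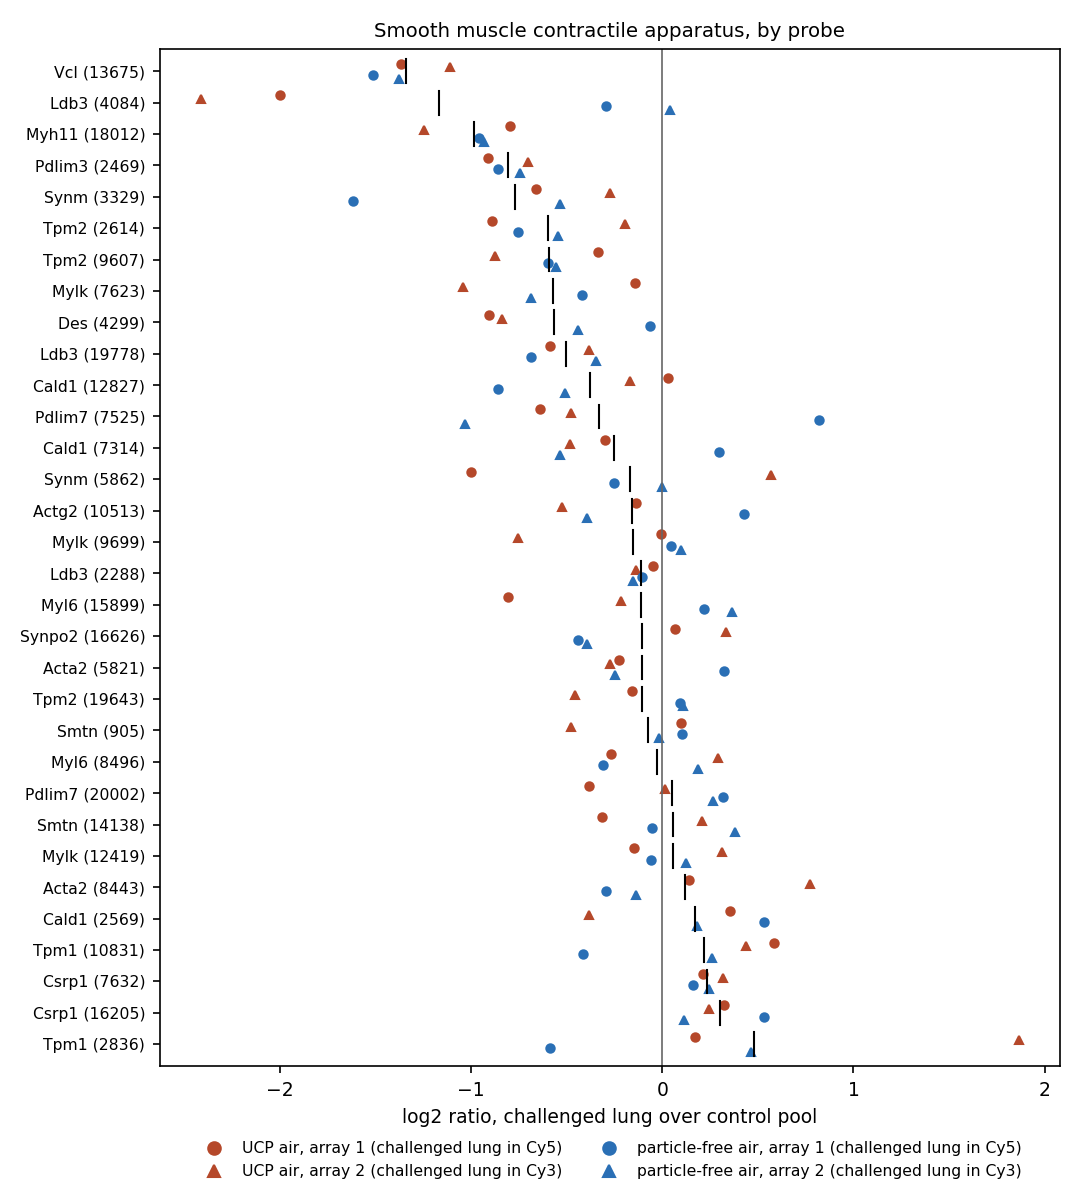
Log2 ratios (horizontal axis, challenged lung over control pool) of the 32 probes of the contractile list with 4 values, ordered by the mean of the 4 arrays (black bar), with UCP air in red and particle-free air in blue. Myh11 is at rank 3 from the lowest with its 4 values close together, while the Acta2 and Actg2 probes straddle 0.

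Among the tropomyosins, Tpm2 probes 2614 and 9607 had the lowest averages. Tpm1, the alpha-tropomyosin of muscle, averaged 0.48 ± 1.02 and 0.22 ± 0.44 on its 2 probes, and Tpm4, a tropomyosin of many cell types, averaged 0.44 ± 0.18 and 0.23 ± 0.18 with all 8 values above 0 (SD, n = 4 each). Tpm3, made in slow muscle and in other cells, averaged -0.31 ± 0.59 (SD, n = 4) on the probe with 4 values. Of the proteins that cap or nucleate the pointed ends of actin filaments, Tmod1 averaged -0.68 ± 0.51 and Lmod2 -0.57 ± 0.45 (SD, n = 4 each), both of which striated muscle makes. Lmod1, the smooth muscle leiomodin, had a single value of 0.59 in UCP air, 2.03 and -2.06 in particle-free air, and no test. In this list 0 of 13 probes passed by limma, 4 were lower and 1 was higher at an unadjusted p under 0.05 (7.59% and 6.45% of all probes), and the median was -0.23.

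The myosin heavy chains were low as a family, and Myh11 was not the lowest. All 10 probes, for 9 genes, averaged below 0, with a median of -1.32, against 53.3% of all probes below 0 and their median of -0.03. Of these 10 probes 7 were at least 1.5-fold lower on each array, Myh11 among them, against 1.20% of all probes. Myh11 ranked 7 of 10 from the lowest. Myh8, Myh1 and Myh4, heavy chains of skeletal muscle, averaged -1.83 ± 0.26, -1.68 ± 0.20 (the lower of the 2 Myh1 probes) and -1.52 ± 0.40, and Myh7, the slow and cardiac beta chain, -1.29 ± 0.64 (SD, n = 4 each). Of the nonmuscle chains Myh10 averaged -1.35 ± 0.50, Myh14 -0.84 ± 0.33 and Myh9 -0.07 ± 0.37 (SD, n = 4 each). No heavy chain probe passed over all probes (limma adjusted p between 0.0877 and 0.891).

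**Figure D4:**
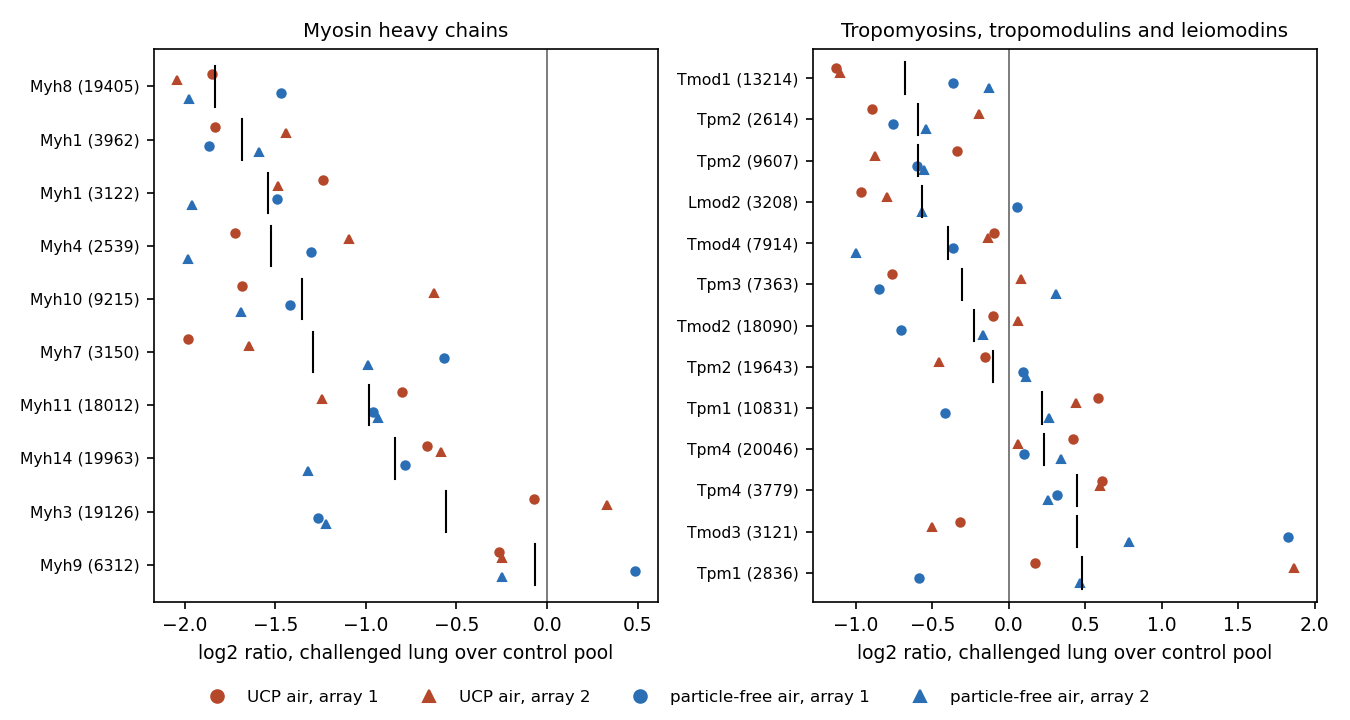
Log2 ratios (horizontal axis, challenged lung over control pool) of myosin heavy chains (left) and of tropomyosins, tropomodulins and leiomodins (right) on the 4 arrays, UCP air in red and particle-free air in blue, black bars for means. All heavy chain probes average below 0 with Myh11 at -0.98, and among the tropomyosins Tpm2 probes 2614 and 9607 lie lowest.

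The light chains were read as a list of 16 tested probes, of which 12 averaged below 0 (median -0.12) and 0 passed by limma. Of all probes 53.3% averaged below 0. Myl6, the essential light chain of smooth muscle and nonmuscle myosin, averaged -0.11 ± 0.53 and -0.03 ± 0.31 on its 2 probes (SD, n = 4 each), and the nonmuscle regulatory light chains Myl12a and Myl12b averaged between -0.12 and 0.08 over 4 probes. Myl9, the regulatory light chain of smooth muscle, was not analysed here. Myl4 and Myl7, the atrial light chains, had their lowest values in UCP air, at -2.77 and -2.71 for Myl4 and at -2.66 and -3.00 for Myl7, while in particle-free air Myl4 read -0.65 and -0.88 and Myl7 read -0.57 and -0.71. The actins (8 probes, median 0.02) had 4 probes on each side of 0, and the 3 tested probes of the nonmuscle actin Actg1 disagreed, at -0.21 ± 0.36, 0.34 ± 0.61 and 0.91 ± 0.13 (SD, n = 4 each). Troponins, which smooth muscle lacks, averaged below 0 on all 6 probes, against 53.3% of all probes. Their median was -2.09 in UCP air and -0.09 in particle-free air, but the probes did not share 1 pattern. Tnnt2 averaged -2.76 in UCP air and -0.01 in particle-free air, whereas Tnnc2 averaged 0.25 and -1.76 in that order (n = 2 each). Tnni2 sat at the plateau of extreme ratios on array 2 of UCP air.

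Regulators of smooth muscle tone and identity were read from a list of 34 genes, 13 of them measured with 15 probes. No probe passed over all probes by limma, 5 were lower and 1 was higher at an unadjusted p under 0.05 (7.59% and 6.45% of all probes), and the median was -0.20. Ppp1cb and Ppp1r12a, the catalytic and targeting subunits of the phosphatase that removes phosphate from the myosin light chain, were at least 1.5-fold lower on each array, as were 1.20% of all probes. Ppp1cb read -1.44 and -1.29 in UCP air and -1.82 and -1.49 in particle-free air (limma adjusted p = 0.0981). Ppp1r12a read -0.89 and -0.92 in UCP air and -0.61 and -0.59 in particle-free air (limma adjusted p = 0.178). Myocd, the coactivator of smooth muscle genes, averaged 0.16 ± 0.36, and its partner Srf 0.19 ± 0.36 on the probe with 4 values (SD, n = 4 each). The other Srf probe was below 0 on the 3 arrays with a value, at -0.68 and -0.44 in UCP air and -0.82 in particle-free air. Klf4 and Mrtfb averaged -0.82 ± 0.66 and -0.39 ± 0.26 (SD, n = 4 each). Both were among the 6 of 15 regulator probes below 0 on each array, against 13.6% of all probes. Rgs4, which turns off signals of G protein-coupled receptors, was the only regulator probe above 0 on each array, at 0.81 ± 0.23 (SD, n = 4). The 2 probes of the calcium channel gene Cacna1c disagreed, with averages of -2.30 and 1.42, and Rhoa, a switch of the kinases that keep the light chain phosphorylated, averaged 1.15 ± 2.36 (SD, n = 4), with 4.69 on array 2 of UCP air and the other arrays between -0.11 and 0.04.

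Promoter sequence from RefSeq (GRCm38.p6) is shown for Tpm2, for Vcl, the contractile gene with the lowest averaged ratio, and for Acta2, whose ratios lay on both sides of 0, so that they can be read side by side. Vcl and Acta2 were chosen after their values were seen. No Myh11 promoter window was searched, so Myh11 is in none of the contractile list's counts below. Each window runs from 250 bases before to 50 bases after the annotated start, 5′ to 3′ on the strand of the gene. Capitals mark matches on either strand to the CArG box (the site bound by serum response factor), the MCAT box CATTCC, the E box CANNTG and the TATA box TATAAA.
Tpm2 (chr4:43523505-43523804, minus strand): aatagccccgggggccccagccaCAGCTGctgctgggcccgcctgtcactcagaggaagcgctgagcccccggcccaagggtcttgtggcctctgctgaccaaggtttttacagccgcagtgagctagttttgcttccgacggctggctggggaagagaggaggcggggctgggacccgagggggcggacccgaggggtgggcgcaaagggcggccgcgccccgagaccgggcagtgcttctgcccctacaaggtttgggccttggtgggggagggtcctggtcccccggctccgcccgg
Vcl (chr14:20929148-20929447, plus strand): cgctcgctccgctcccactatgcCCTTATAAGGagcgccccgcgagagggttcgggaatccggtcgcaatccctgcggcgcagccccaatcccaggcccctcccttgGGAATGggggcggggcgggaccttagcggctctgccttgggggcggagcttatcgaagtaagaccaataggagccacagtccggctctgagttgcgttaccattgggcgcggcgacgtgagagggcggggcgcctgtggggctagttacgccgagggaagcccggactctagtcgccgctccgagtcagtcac
Acta2 (chr19:34255324-34255623, minus strand): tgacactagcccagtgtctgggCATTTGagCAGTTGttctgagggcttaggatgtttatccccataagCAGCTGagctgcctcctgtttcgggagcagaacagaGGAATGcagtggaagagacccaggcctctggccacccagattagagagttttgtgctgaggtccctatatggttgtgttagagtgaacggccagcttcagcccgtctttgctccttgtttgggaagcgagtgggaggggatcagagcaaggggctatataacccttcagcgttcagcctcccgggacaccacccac
The Tpm2 window held 1 E box and none of the other motifs. The Vcl window held 1 CArG box and 1 MCAT box, and the Acta2 window 1 MCAT box and 3 E boxes. The Acta2 window also holds ccctatatgg and ccttgtttgg, each of which is 1 letter off the CArG pattern and was not counted. Among 32544 windows of this length in the table, 1.6% held a CArG box, 14.6% an MCAT box, 72.3% an E box and 13.6% a TATA box. Of the 25 windows of the contractile list 5 held an exact CArG match. Of these, 2 are overlapping windows of Ldb3 with the same box, so that 4 of 21 genes had an exact match. These are exact matches of letters in a short window only, so a window without a match may still hold a bound site.

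By the root mean square difference of the 4 ratios, the named probes most like Myh11 among 12531 were those of Gabarapl1 (0.13), an autophagy protein, Dcaf12 (0.13), the ion channel gene Asic2 (0.14), the retinoblastoma gene Rb1 (0.16) and Myl1 (0.17), a light chain of skeletal muscle. Nearest to Tpm2 probe 2614 were Tril, Hba-a1, Grrp1, Selplg and Tcf25 (0.09 to 0.13), and nearest to probe 9607 were Abcc1, Metap1, Uchl1, Glul and Atad1 (0.05 to 0.11). Nearest to probe 19643, whose ratios lie near 0, were Apol6, Zhx2, Reep2, Rasl10b and Slc25a2 (0.04 to 0.07). These likenesses rest on 4 arrays and describe the ratios only.

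Marker lists of other tissues and cell types were read beside the members. Skeletal muscle markers, whose list includes Myh1, Myh4 and Myl1, averaged below 0 for 13 of 14 probes with 4 values, against 53.3% of all probes. Their array medians were -0.99 and -1.15 in UCP air and -1.13 and -1.60 in particle-free air. Tpm2 is made in skeletal muscle too. Heart muscle markers averaged below 0 for 15 of 18 probes, with array medians of -2.13 and -1.99 in UCP air and of 0.04 and -0.02 in particle-free air, while Myh11 averaged -1.02 in UCP air and -0.95 in particle-free air. Squamous epithelium markers averaged below 0 for 5 of 6 probes (array medians between -1.81 and -1.08) and fat markers for 14 of 14 (array medians between -2.04 and -0.92). The part of these tissues in the Myh11 and Tpm2 ratios was not tested.

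Cell types that lie close to smooth muscle in the lung wall were read next. Pericyte markers averaged below 0 for 5 of 5 probes, against 53.3% of all probes, with a median of -0.20. Of these, Higd1b and Cspg4 averaged -0.03 each. Only Notch3, a receptor of mural cells, was below 0 on each array, at -0.86 ± 0.36 (SD, n = 4, limma adjusted p = 0.198). Fibroblast markers averaged below 0 for 7 of 15 probes (median 0.16) and myofibroblast markers for 4 of 15 (median 0.41). With probes averaged by gene the fibroblast median was -0.06, on the other side of 0. Col3a1, a fibrillar collagen, averaged 1.60 ± 0.47, whereas Dcn, the matrix proteoglycan decorin, averaged -1.07 ± 0.42 and was at least 1.5-fold lower on each array (SD, n = 4 each). The probes of the fibronectin gene Fn1 disagreed, with averages from -0.47 ± 0.23 (below 0 on each array) to 2.01 ± 0.24 (SD, n = 4 each). Endothelial markers had a median of 0.08 over 10 probes, alveolar type 2 markers of -0.21 over 7 and housekeeping genes of 0.52 over 8. Airway epithelium markers had a median of -0.14 over 12 probes but of -0.63 over genes, with array medians of -0.12 and -0.15 in UCP air and of -0.68 and -0.49 in particle-free air. Of these 12 probes 4 were at least 1.5-fold lower on each array, against 1.20% of all probes. They were the tubulin gene Tubb4b at -1.66 ± 0.49, the cytochrome P450 genes Cyp2f2 at -1.29 ± 0.39 and Cyp4b1 at -0.99 ± 0.23, and Sec14l3 at -1.17 ± 0.16 (SD, n = 4 each), averages as low as that of Myh11 or lower. The other Tubb4b probe averaged 0.40. Macrophage markers had a median of 1.09 over 11 probes. Liver markers, genes of secreted plasma proteins among them, averaged above 0 for 11 of 12 probes, with array medians of 0.53 and 0.39 in UCP air and of 3.51 and 3.06 in particle-free air. The part of these cells in the Myh11 and Tpm2 ratios was not tested either. No marker probe passed over all probes by limma.

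**Figure D5:**
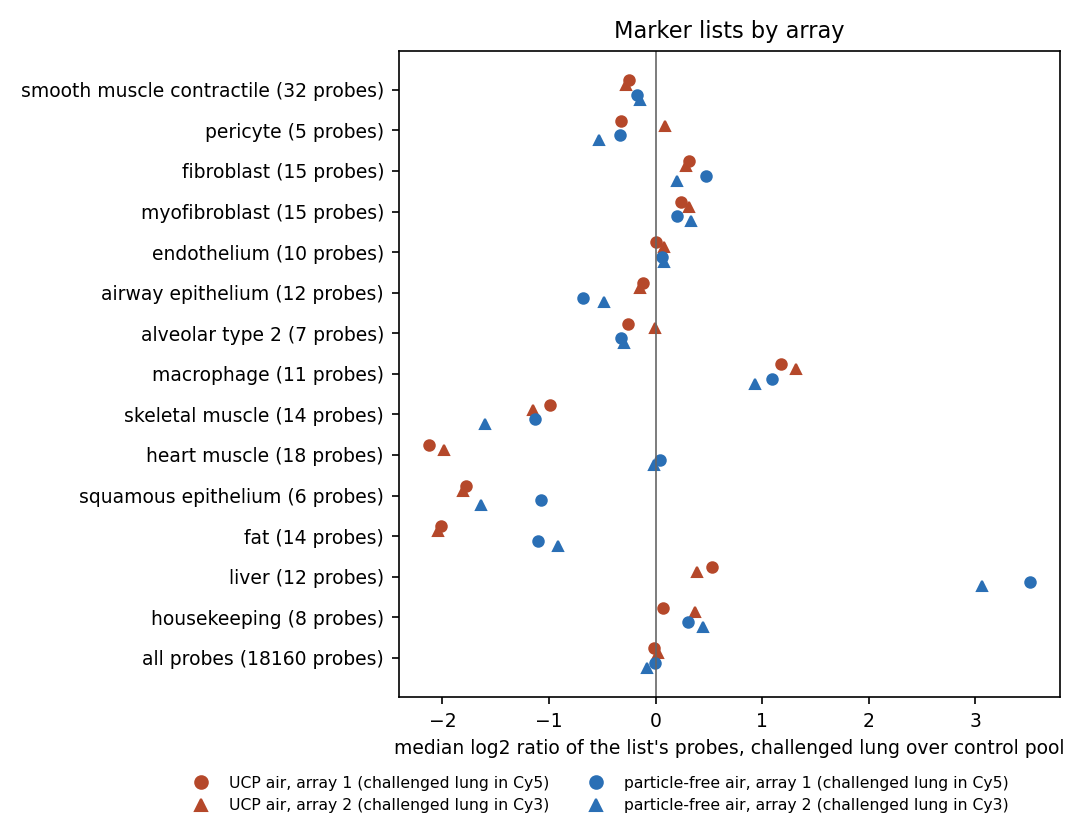
Median log2 ratio of the probes of each marker list (horizontal axis, challenged lung over control pool) on the 4 arrays, UCP air in red and particle-free air in blue, with the number of probes tested beside each list. Skeletal muscle, squamous epithelium and fat lists lie below 0 on all 4 arrays, the heart muscle list lies near -2 in UCP air and near 0 in particle-free air, and the smooth muscle contractile list between -0.27 and -0.15.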

How the data were processed

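Per the labels' protocols, total lung RNA was reverse transcribed, labelled indirectly with Cy3 or Cy5 and hybridised together with control pool cDNA in the other dye, on 4 arrays. The authors deposited log2 ratios. How they were normalized, and with which software, was not given in these sources. The scale was read from the values, and the relative direction was taken to be the same on all 4 arrays. Values were used as deposited.

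The platform annotation gives 1 symbol to 13852 of 20205 probes, several to 0 and none to 6353. Of those symbols 13849 were found in the RefSeq gene table through the Entrez identifier. The 18160 probes with 4 values were fitted with limma 3.58.1 (R 4.3.3), with 1 coefficient per air on all 4 arrays (2 residual and 2.32 prior degrees of freedom) and no block. The averaged effect, each air and UCP minus particle-free air were tested two-sided, with Benjamini-Hochberg adjustment over all probes at 0.05. The code of the fit was checked on simulated data with independent noise, and how often effects of the size seen for Myh11 were recovered there is not given here.

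The members, gene lists, tests and alternatives were chosen with earlier results of these data known. Lists were described by counts and medians, over probes with 4 values. Any measured member of the smooth muscle, heavy chain, light chain, actin and tropomyosin lists could be named, and of each other list up to 5 by size of the averaged ratio. The 5 named probes nearest to each member probe were listed. Alternatives changed the centring, the scaling, the block, the averaging of arrays or probes, the missing values, the prior and the plateau values, and left out each array in turn.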

Additional observations from a re-analysis of the deposited data

Results flagged for a closer look

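Of 86 probes of Myh11, Tpm2 and the muscle, actin and tropomyosin lists with 4 values, 11 had both UCP arrays on 1 side of 0 and both particle-free arrays on the other, as had 8.23% of all probes. None of these differences passed limma's test of UCP minus particle-free air (adjusted p between 0.846 and 0.984). The differences, UCP minus particle-free, were -0.41 for Tpm2 probe 19643 and, on the actin side, 0.67 for Acta2 probe 8443 and -0.80 for Actb probe 11344. Among the light chains and their kinase they were -3.65 for Myl2, -2.00 for Myl3, -0.80 for Myl6 probe 15899 and -0.45 for Mylk probe 9699. Synpo2, an actin-bundling protein, differed by 0.62, the pointed-end cap Tmod3 by -1.72, and the troponins Tnnc1 and Tnnc2 by -2.04 and 2.01. For Tpm2 probe 19643 the other 2 probes of the gene, at 0.11 and -0.03, did not show this split. Groups of 2 arrays are too small for a search for single arrays that lie far from the rest.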

How the results depend on the processing

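Several of the 12 other settings, such as a replicate block, could not move a member's ratio, so its direction was fixed there. The counts that follow are thus no measure of robustness. Under all 12 settings, 168 values of the 4 member probes were recomputed. Of these, 164 kept their direction and their side of the threshold, 0 became significant and 4 turned. Those 4 were differences between the airs: 0.15 for Myh11, -0.24 for Tpm2 probe 2614 and 0.24 for Tpm2 probe 9607 without array 2 of UCP air, and -0.07 for Tpm2 probe 2614 with arrays centred and scaled. Leaving out each array in turn gave -0.30 to 0.15 for Myh11, -0.24 to 0.46 for Tpm2 probe 2614 and -0.30 to 0.24 for Tpm2 probe 9607. The averaged Myh11 ratio ran from -1.10 to -0.87 over the settings (limma adjusted p from 0.122 to 0.663). With the replicate block, which equals the dye, it was -0.98 (limma adjusted p = 0.317), and the count of higher probes was 0. Same-numbered arrays deviated together only weakly (r = 0.05 over 18160 probes), and the labels do not pair them.

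Counts of probes called by limma moved. For the averaged effect, 1 higher probe became 2 with scaling, 5 with plateau values missing and 0 with 1 mean value per air. With probes of a gene averaged first, 6 genes were higher and 3 lower for the averaged effect, 1 higher and 1 lower in UCP air and 1 higher in particle-free air, and neither Myh11 nor Tpm2 was among them. With every probe that had a value in both airs, 6 were higher and 4 lower in particle-free air. Leaving out each array in turn gave 0 to 32 lower and 0 to 9 higher for the averaged effect, 0 to 34 lower and 0 to 4 higher in UCP air, 0 to 24 lower and 0 to 8 higher in particle-free air, and 0 to 32 lower and 0 to 19 higher for the difference. The contractile list's median then ran from -0.20 (without array 1 of UCP air) to -0.12, that of the heavy chains from -1.43 to -1.15, and the share of actin probes below 0 from 25.0% (without array 2 of particle-free air) to 75.0% (without array 2 of UCP air). The cause of these shifts was not tested. Where an air is left with 1 array, that array is assumed to vary like those of the other air. With 4 arrays, no brightness values and 1 control pool per array, dim probes could not be set apart and the controls' own spread is in no interval.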
